A study of Mus musculus with 3 samples.

Results

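The genes described here drive a cell through the G2 phase and mitosis, and they were read in mouse long-term haematopoietic stem cells exposed to gamma radiation. They are 36 genes listed by function, and they were chosen with earlier results of these data known. On the list are cyclins and their kinase, the mitotic kinases, the spindle checkpoint, the anaphase-promoting complex, and the proteins of centromere, spindle and cytokinesis. All 36 were found among the 23740 named genes of the arrays, 35 of them through the platform's own annotation and Ccnb1 through its Entrez gene identifier in RefSeq.

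Every group held bone marrow cells sorted as Lin- ckit+ Sca+ Flk2- CD48-CD150+ and cultured overnight in Stemspan SFEM before exposure, with RNA taken 2 hours afterwards. The groups were cells given 0 Gy (unirradiated), 0.02 Gy (low dose) and 2.5 Gy (high dose), with 1 array each. The labels name no strain, age or sex, no number of mice and no pooling. With 1 array per dose no difference has a replicate check, no test was run, and each value below is a difference between single arrays, whose number limits its precision.

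In a dividing cell, cyclin B accumulates through G2 and activates the kinase CDK1, which WEE1 restrains and the CDC25 phosphatases release. Active CDK1 starts mitosis, the spindle checkpoint holds anaphase until every chromosome is attached, and the anaphase-promoting complex then marks cyclin B and securin for destruction. In the marrow, long-term haematopoietic stem cells are mostly quiescent, so few of them are in G2 or mitosis at any moment. How many of the cells cultured here were dividing is not known. In cells with damaged DNA, p53 raises p21, and the DREAM complex then holds genes of this class down through promoter elements called the cell cycle genes homology region (CHR), which often lies beside CCAAT boxes bound by NF-Y.

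The CHR (TTTGAA, or its variant TTTAAA) and the CCAAT box were searched on both strands of the RefSeq promoter windows (GRCm38.p6), which run from 250 bases before the annotated transcript start to 50 bases after it. Windows were given for 30 of the 36 genes, 33 windows in all. A CCAAT box lay in 29 of the 33 windows (87.9%), against 36.8% of the 11380 windows of genes past the level minimum defined below and 37.4% of all 32851 windows. Either form of the CHR lay in 27 (81.8%), against 20.3% and 27.6%, and both elements together in 25 (75.8%), against 7.85% and 10.7%. TTTGAA itself was in 72.7% of the windows of these genes and TTTAAA in 27.3%. A match is only a description of the letters in the window. Windows of 1 gene can overlap, and 3 of the 30 genes (Bub3, Ect2 and Prc1) had more than 1.

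These promoters are shown because their genes had the lowest values at the high dose relative to the low dose among those past the level minimum with a window. They are given 5′ to 3′ on the strand of the gene, with the CCAAT boxes (ATTGG where they lie on the opposite strand) and CHR elements (TTCAAA on the opposite strand) in capitals. Fbxo5 lies at chr10:5805416-5805715 on the minus strand, Ccnb1 at chr13:100786437-100786736 on the minus strand, and Bub1b at chr2:118597961-118598260 on the plus strand.
Fbxo5: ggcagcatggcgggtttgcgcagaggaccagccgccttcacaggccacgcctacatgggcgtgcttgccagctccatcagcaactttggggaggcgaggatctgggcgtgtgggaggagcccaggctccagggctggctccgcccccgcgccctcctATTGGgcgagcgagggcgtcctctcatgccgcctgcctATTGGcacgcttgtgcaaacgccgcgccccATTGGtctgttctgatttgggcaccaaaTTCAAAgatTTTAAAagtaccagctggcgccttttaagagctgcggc
Ccnb1: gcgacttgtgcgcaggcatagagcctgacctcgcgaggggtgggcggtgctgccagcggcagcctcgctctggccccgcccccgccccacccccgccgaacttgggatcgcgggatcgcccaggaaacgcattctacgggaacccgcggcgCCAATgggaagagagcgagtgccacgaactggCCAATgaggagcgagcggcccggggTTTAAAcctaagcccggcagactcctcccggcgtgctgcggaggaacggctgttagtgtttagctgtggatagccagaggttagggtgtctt
Bub1b: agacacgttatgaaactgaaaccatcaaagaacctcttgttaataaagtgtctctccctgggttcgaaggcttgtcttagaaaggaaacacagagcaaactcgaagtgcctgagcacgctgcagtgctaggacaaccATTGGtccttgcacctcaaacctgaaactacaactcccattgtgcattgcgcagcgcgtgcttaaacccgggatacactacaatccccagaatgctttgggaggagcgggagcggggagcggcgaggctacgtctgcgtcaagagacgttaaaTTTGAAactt

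The Fbxo5 window held 3 CCAAT boxes, at positions −93, −55 and −25 from the transcript start, a CHR of the first form at position 4 and its variant at 13. Ccnb1 had CCAAT boxes at −99 and −67 and the CHR variant at −42. Bub1b had 1 CCAAT box at −113 and a CHR of the first form at 41. Over all windows of these genes the median position was −71 for CCAAT and −16.5 for TTTGAA. The CHR variant reads the same on both strands, and the motifs searched do not overlap in these 3 windows. Neither element was found in the windows of Mad2l1 and Nusap1, genes that were lowest at the high dose, as were the 3 shown. Other genes past the level minimum that were lowest there, Ccnb2, Aurka, Cdc20, Cenpa, Cenpf, Kif11, Hmmr and Prc1, had both elements. Nek2 had a CCAAT box alone, and Aurkb and Tpx2 had no window. Both elements were found for Cdk1, Mki67, Ttk and Bub3, which were highest at the high dose. Whether the elements go with the order of the arrays was not tested.

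**Figure D1:**
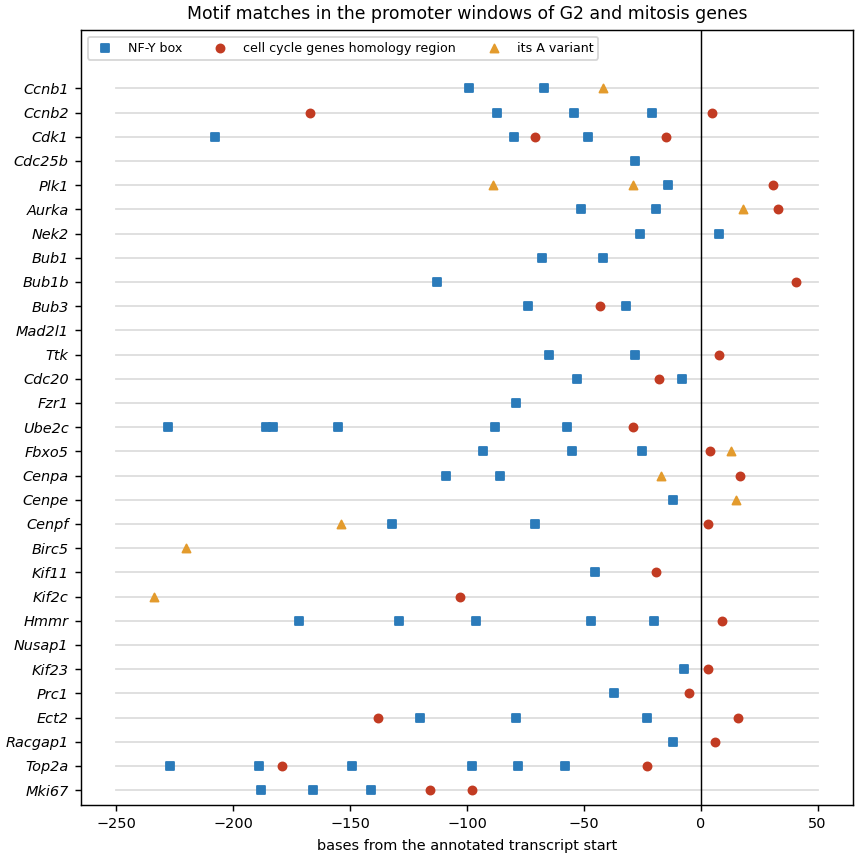
Positions of the NF-Y box (squares), the CHR (circles) and its TTTAAA variant (triangles, "A variant") in the promoter windows of the 30 genes with a window, in bases from the annotated transcript start (the first listed window where a gene has several). NF-Y boxes lie mostly upstream of the start, at a median of −71 over all windows, and CHR elements nearer to it; Mad2l1 and Nusap1 carry no symbol.

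Levels are the deposited log2 values, given in the order 0, 0.02 and 2.5 Gy, and are compared only within a gene. Counts were restricted to genes whose 3 values averaged 4.56 or more, the median over all named genes. This level minimum left 11870 genes and 28 of the 36, and Cdc25c, Wee1, Plk1, Bub1, Kif2c, Kif20a, Kif23 and Ect2 fell short of it. A difference was counted when it reached 1.5-fold (0.58 on the log2 scale). Signal over background is not known here. The array medians over all 25206 probe sets were 4.60, 4.54 and 4.55. In both irradiated arrays the genes of high level lay somewhat above the unirradiated array. In the top of 5 equal level groups the median over all genes was 0.19 in low dose minus unirradiated and 0.15 in high dose minus unirradiated, against −0.07 and −0.04 in the lowest group.

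All 9 stem cell markers were past the level minimum, and of the T cell markers 0 of 5 were. Past it were also 2 of 3 measured erythroid, 2 of 5 B cell, 2 of 3 multipotent progenitor, 6 of 7 myeloid and 5 of 5 megakaryocyte markers. Taken off the log2 scale and summed, the progenitor markers (Flt3, Cd48 and Cd34) gave 168, 222 and 146 at 0, 0.02 and 2.5 Gy, and the myeloid markers 319, 546 and 619. Stem cell markers summed to 963, 1269 and 1209, megakaryocyte markers to 785, 895 and 954, erythroid markers to 89.3, 85.1 and 86.8, B cell markers to 118, 113 and 128, and T cell markers to 79.9, 72.5 and 80.6. In high dose minus unirradiated, 4 of the 5 megakaryocyte markers lay below 0, with a median of −0.17, although their sum was higher. Of the 9 stem cell markers 5 lay above 0 and 4 below, with a median of 0.04. The 36 G2 and mitosis genes summed to 2002, 2280 and 1780, and without Ccnb1 to 1645, 1793 and 1540. The progenitor sum had the same order, but of its 3 markers Cd34 alone did (7.04, 7.50 and 6.72). Flt3 was at 4.60, 4.95 and 4.93, lowest on the unirradiated array, and Cd48, below the level minimum, was at 3.62, 3.31 and 3.40, lowest on the low-dose array. The lowest value of any probe set on the arrays was 1.55, so a marker value above 0 does not show that its gene was expressed. The part of other cells in the differences below was not tested.

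Most of the G2 and mitosis genes lay close together on the 3 arrays. Of the 28 past the level minimum, 22 (78.6%) spanned less than 1.5-fold from their lowest to their highest array, against 77.5% of all 11870 genes. The median span was 0.33, against 0.37 over all genes. Their shares lay further from those of all genes in the order of the arrays. That difference was not tested, and the genes were chosen with earlier results of these data known. The high-dose array was the lowest for 16 of 28 (57.1%), against 29.8% of all genes. The order with the low dose highest and the high dose lowest was found for 10 of the 28 (35.7%), against 16.8% of all genes. These 10 were Ccnb1, Aurka, Bub1b, Mad2l1, Fbxo5, Cenpf, Kif11, Tpx2, Hmmr and Prc1. After quantile normalization and after loess the count was 9 of 28, against 16.5% and 17.0% of all genes, and after median centring it was 13, against 17.1%. In bulk RNA, fewer cells in G2 or mitosis and less RNA per cell cannot be told apart.

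**Figure D2:**
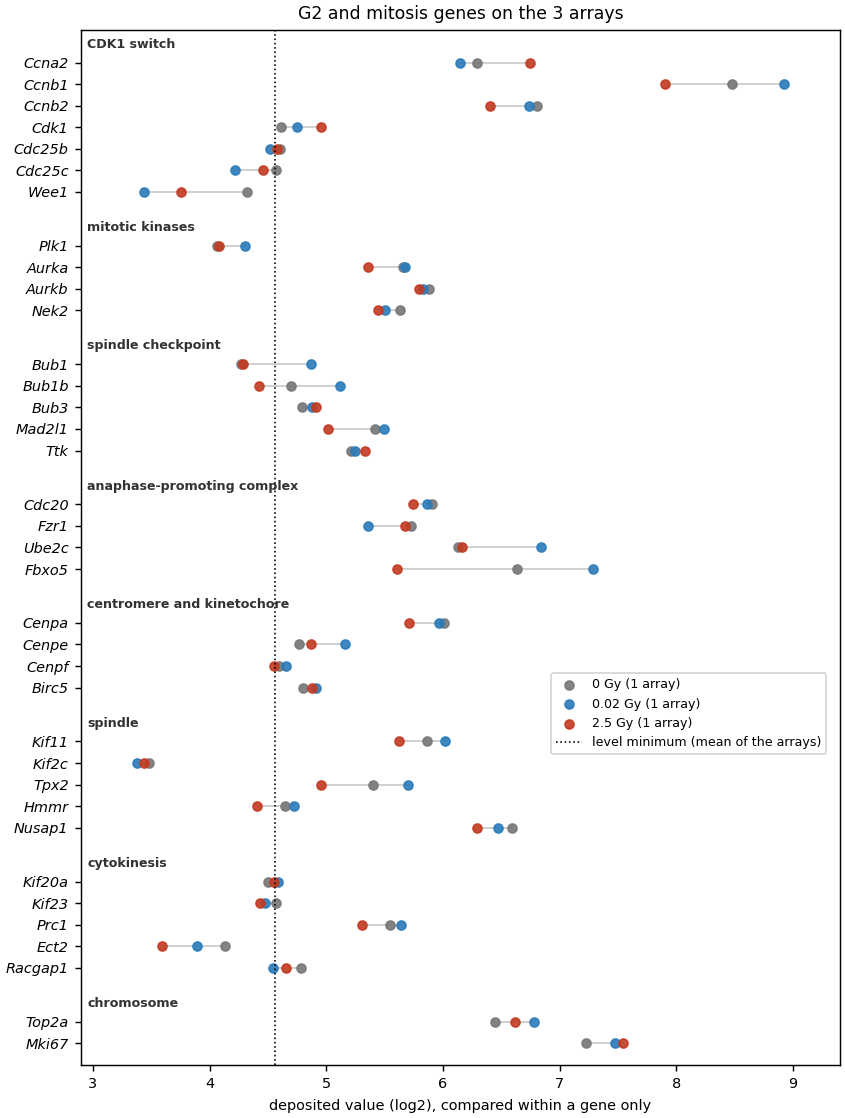
Deposited log2 values of the 36 genes on the arrays at 0 Gy (grey), 0.02 Gy (blue) and 2.5 Gy (red), 1 array each, grouped by role. The dotted line is the level minimum of 4.56 for the mean of the arrays; Fbxo5, from 5.61 to 7.29, and Ccnb1, from 7.90 to 8.93, have the widest spans, with the high-dose array lowest in both.

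Among the cyclins, those of type B and type A lay on opposite sides of the unirradiated array at the high dose. Ccnb1, which encodes cyclin B1, the main activator of CDK1 at mitotic entry, was at 8.48, 8.93 and 7.90. It was lowest on the high-dose array, at −0.58 from the unirradiated array, just short of the counted size, and at −1.02 from the low-dose array, a ratio of 0.492. Ccnb2, which encodes cyclin B2, was at 6.81, 6.74 and 6.40, and so also lowest at the high dose (−0.41 from unirradiated). Ccna2, which encodes cyclin A2 of S phase and G2, was at 6.29, 6.14 and 6.75, highest at the high dose, by 0.46 over unirradiated and 0.61 over the low dose. It was the 1 gene of the 28 counted as higher in high dose minus low dose. Cdk1, the kinase that these cyclins activate, was at 4.61, 4.75 and 4.95, a difference of 0.34 at the high dose. After quantile normalization and loess, which take off the level trend, Ccnb1 lay at −0.78 and −0.76 from the unirradiated array and would be counted.

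The platform annotation lists a transcribed pseudogene of cyclin B1, Ccnb1-ps, named here after its values were seen, whose own probe set was at 5.77, 3.68 and 4.70. Its order differed from that of Ccnb1, with the low-dose array lowest. Whether probes of the pair share signal was not tested.

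The regulators that act on CDK1 lay near or below the level minimum. Cdc25b, a phosphatase that activates CDK1, was at 4.61, 4.52 and 4.58, and Cdc25c, another, at 4.57, 4.22 and 4.46. Wee1, the kinase that inhibits CDK1, was at 4.32, 3.44 and 3.76, below the level minimum as a mean, with both irradiated arrays under the unirradiated one (by −0.88 for the low dose and −0.56 for the high dose).

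The mitotic kinases differed little. Aurka, needed for centrosome maturation and spindle poles, was at 5.66, 5.68 and 5.36, lower on the high-dose array alone (−0.30 from unirradiated). Aurkb, the kinase of the chromosomal passenger complex, was at 5.88, 5.83 and 5.80, among the narrowest spans of the set. Nek2, a centrosome kinase, was at 5.63, 5.50 and 5.44. Plk1, which acts at many steps of mitosis, was below the level minimum at 4.07, 4.30 and 4.08. All 3 past the minimum lay below 0 in high dose minus unirradiated, by 0.30 or less, and 46.2% of all genes lay below 0 there.

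Genes of the spindle checkpoint did not share one order over the arrays. Bub1b, which encodes BUBR1 of the mitotic checkpoint complex, was at 4.70, 5.12 and 4.43, with the unirradiated array between the others. Its difference was 0.42 in low dose minus unirradiated and −0.69 in high dose minus low dose. Mad2l1, which encodes MAD2, was at 5.42, 5.50 and 5.02, again lowest at the high dose (−0.40 from unirradiated). Bub1, a checkpoint kinase at the kinetochore, was at 4.27, 4.87 and 4.29, so the low-dose array stood alone. Bub3, the partner of BUB1 and BUBR1, was at 4.79, 4.87 and 4.92, and Ttk, which encodes the kinase MPS1, at 5.21, 5.25 and 5.33. Both were highest at the high dose, by 0.12 over unirradiated.

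The widest span over the arrays was that of Fbxo5, among the regulators of the anaphase-promoting complex. It encodes EMI1, which inhibits that complex in S phase and G2 so that cyclins can accumulate, and Fbxo5 was at 6.63, 7.29 and 5.61. The low-dose array was highest and the high-dose array lowest, with differences of 0.66 in low dose minus unirradiated, −1.03 in high dose minus unirradiated and −1.68 in high dose minus low dose, a ratio of 0.311. Ube2c encodes the ubiquitin-conjugating enzyme that works with the complex, and it was at 6.13, 6.84 and 6.16. The low-dose array alone stood apart here, by 0.71 over unirradiated, while the high dose differed from unirradiated by 0.03. Cdc20, the activator in mitosis, was at 5.91, 5.87 and 5.74. Fzr1, which encodes CDH1, the activator from late mitosis through G1, was at 5.72, 5.36 and 5.68, lowest at the low dose (−0.37). Fzr1 thus had the low-dose array at its lowest and Fbxo5 and Ube2c had it at their highest.

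At the centromere, all 4 genes lay below 0 in high dose minus low dose, by 0.29 or less, against 50.3% of all genes below 0. Cenpa, the centromeric histone H3 variant, was at 6.01, 5.96 and 5.71. Cenpe, a kinetochore motor, was at 4.76, 5.16 and 4.87, with the low dose highest. Cenpf, a kinetochore and nuclear matrix protein of G2, was at 4.60, 4.66 and 4.56, and Birc5, which encodes survivin of the chromosomal passenger complex, at 4.80, 4.91 and 4.88. The last of these spans was 0.11.

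Spindle genes had the high-dose array lowest in every one of the 4 past the level minimum, against 29.8% of all genes. Tpx2, which activates Aurora A and nucleates spindle microtubules, was at 5.40, 5.70 and 4.96, with a difference of −0.44 in high dose minus unirradiated and −0.74 in high dose minus low dose. Kif11, the motor that separates spindle poles, was at 5.86, 6.02 and 5.62. Nusap1, a microtubule bundling protein, was at 6.59, 6.47 and 6.30, and Hmmr, a spindle assembly factor and hyaluronan receptor, at 4.65, 4.72 and 4.41. From the unirradiated array these 4 differed by −0.44 to −0.24 at the high dose. Kif2c, a microtubule depolymerase, was far below the level minimum at 3.48, 3.38 and 3.44.

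Of the 5 cytokinesis genes, 2 were past the level minimum. Prc1, which bundles the central spindle, was at 5.55, 5.64 and 5.31, lowest at the high dose and highest at the low dose. Racgap1 and Kif23 encode the centralspindlin complex. Racgap1 was at 4.78, 4.55 and 4.66, and Kif23, below the minimum, at 4.57, 4.47 and 4.44. Ect2, the exchange factor that activates RhoA at the cleavage furrow, was at 4.13, 3.89 and 3.59, and Kif20a, a motor of the central spindle, at 4.50, 4.58 and 4.55. For Ect2 the high-dose array was lowest, but all 3 values were below the minimum.

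Both chromosome genes ran the other way from the spindle genes at the high dose. Top2a, the topoisomerase that untangles sister chromatids, was at 6.44, 6.78 and 6.61. Mki67, which encodes the proliferation marker Ki-67 that coats mitotic chromosomes, was at 7.23, 7.47 and 7.54. Both were lowest on the unirradiated array. Their differences at the high dose, 0.17 and 0.32, stood beside a median of 0.15 over all genes of their level range, and after loess they were 0.05 and 0.15.

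At 0.02 Gy against 0 Gy, 2 of the 28 genes were at least 1.5-fold higher, Ube2c and Fbxo5, and 0 were lower. Over all 11870 genes the shares were 7.54% higher and 4.68% lower, so a count of 2 in 28 was near the background. Quantile normalization and loess left 0 higher (Ube2c 0.56 and 0.57, Fbxo5 0.47 and 0.51), and they also changed the split of all genes, to 5.77% higher and 5.54% lower and to 5.70% and 5.33%, with 10.1% and 3.55% after median centring. The median difference of the 28 was 0.08, against 0.04 over all genes, and 18 lay above 0, against 54.3% of all genes. Of the genes below the level minimum, Bub1 was 0.60 higher and Wee1 0.88 lower on the log2 scale.

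At 2.5 Gy against 0 Gy, 0 genes were at least 1.5-fold higher, with a background of 6.15%, and 1 was lower, Fbxo5, with a background of 3.38%. The median was −0.15, against 0.03 over all genes, and 19 of 28 lay below 0, against 46.2% of all genes. By level group the gap was uneven. Among the 8 in the top level group the median was −0.13, against 0.15 for all genes of that group. In the fourth group it was −0.21, against 0.05 (4 genes), and in the third −0.27, against 0.01 (6 genes). The 8 in the lowest group had a median of −0.03, against −0.04. The 2 in the second group lay higher, at 0.12, against −0.02.

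At 2.5 Gy against 0.02 Gy, which leaves the unirradiated array out, 5 of the 28 were at least 1.5-fold lower (Fbxo5, Ccnb1, Tpx2, Bub1b and Ube2c), against 5.66% of all genes, and 1 was higher (Ccna2), against 5.77%. The median was −0.17, against −0.00 over all genes, and 20 lay below 0, against 50.3% of all genes. At 2-fold, 2 stayed in the lower count, Fbxo5 and Ccnb1, against 1.04% of all genes. Each pair of these comparisons shares an array, so their counts are not separate observations. Earlier results of these data, known when the genes were chosen, already showed this direction.

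**Figure D3:**
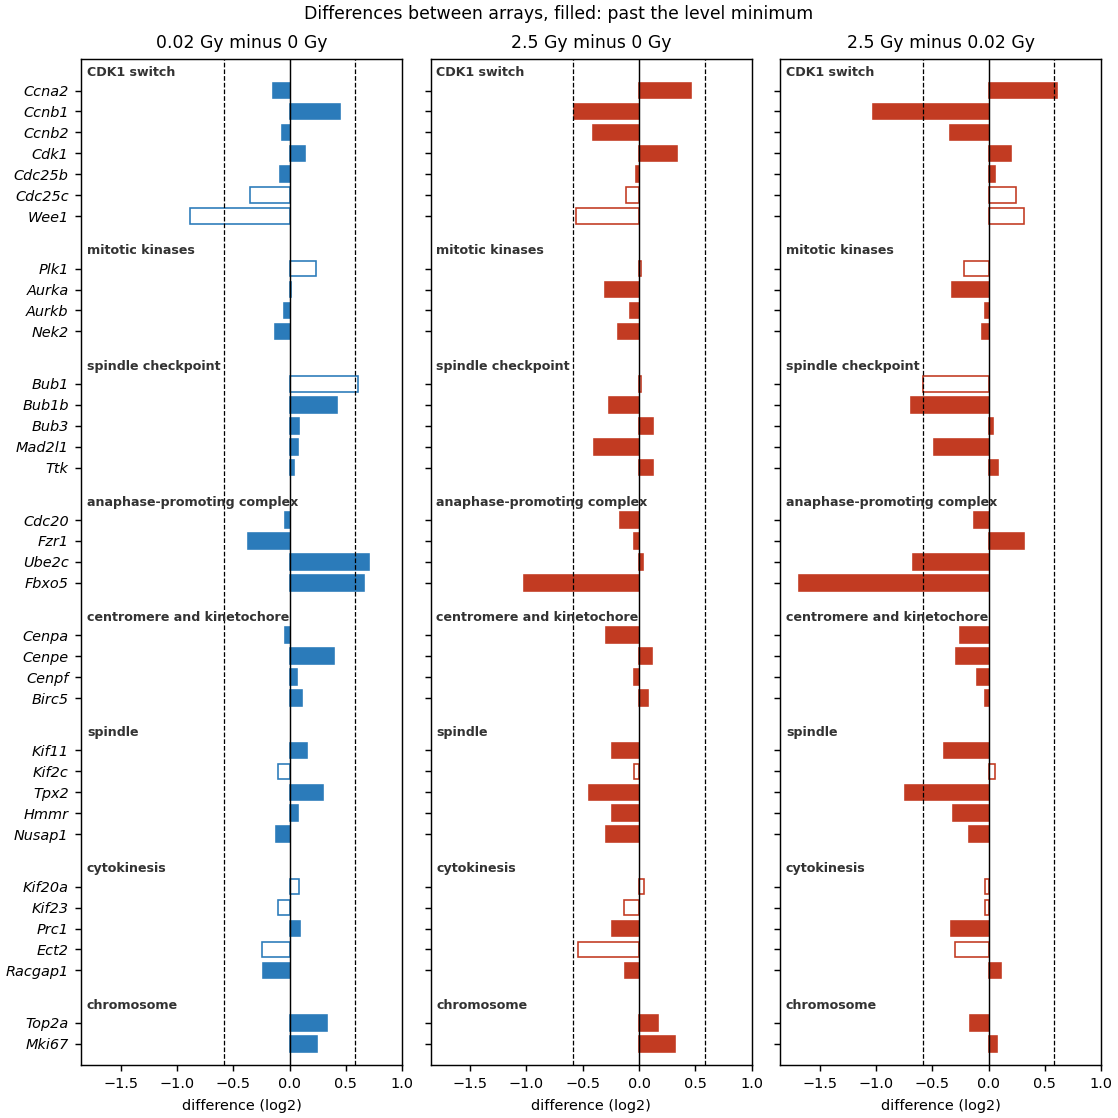
Differences between arrays (log2) for the 36 genes in 0.02 Gy minus 0 Gy (left), 2.5 Gy minus 0 Gy (middle) and 2.5 Gy minus 0.02 Gy (right); filled bars are genes past the level minimum, open bars genes below it, and dashed lines mark 1.5-fold (0.58). Fbxo5 is the lowest bar in both comparisons of the high dose, at −1.03 and −1.68.

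**Figure D4:**
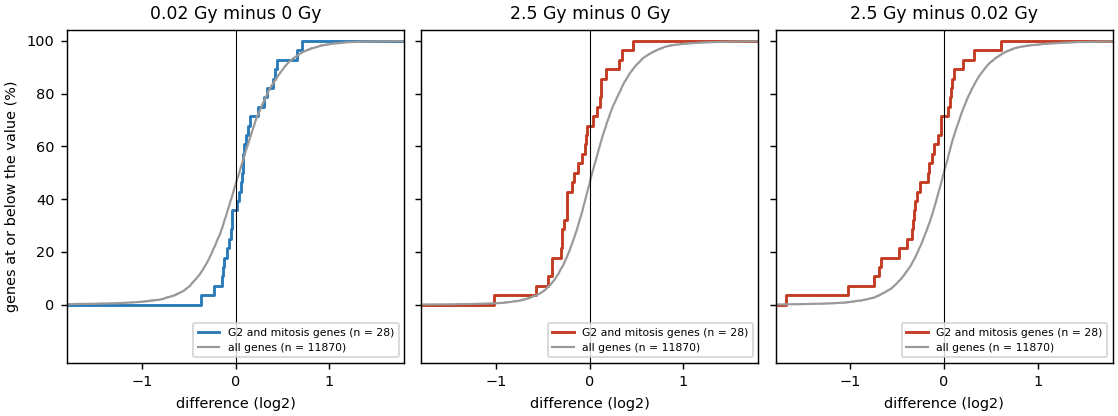
Share of genes at or below each difference (log2) for the 28 G2 and mitosis genes past the level minimum (coloured) and all 11870 genes (grey). The coloured line lies left of the grey line in both comparisons of the high dose, with medians of −0.15 and −0.17 against 0.03 and −0.00.

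Further genes of the same machinery, 121 on 6 lists with none of the 36, were read for comparison, and 94 were past the level minimum. In low dose minus unirradiated 7 of the 94 were at least 1.5-fold higher and 1 lower, against 7.54% and 4.68% of all genes, with a median of 0.13, against 0.04. In high dose minus unirradiated 1 was higher and 1 lower, against 6.15% and 3.38% of all genes, with a median of 0.01, against 0.03, so the lower median of the G2 and mitosis genes at that dose (−0.15) was not found in this larger group. In high dose minus low dose 3 were higher and 8 lower, against 5.77% and 5.66% of all genes, with a median of −0.11, against −0.00, and 66 of 94 below 0, against 50.3% of all genes.

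Within these lists, other regulators of CDK1 (7 of 11 past the minimum) had a median of 0.09 in high dose minus unirradiated, between Bora, a cofactor of Aurora A (−0.54), and Melk, a mitotic kinase (0.35). The transcription factors that control the class (DREAM, B-Myb, FoxM1 and NF-Y; 12 of 16) had a median of 0.16, from Tfdp2, a partner of E2F factors (−0.26), to Rbbp4, a histone-binding subunit of DREAM (0.60). Subunits of the anaphase-promoting complex (15 of 15) had a median of 0.07, from Cdc27 (−0.29) to Anapc5 (0.56). Of these 3 lists 0 genes were at least 1.5-fold lower in that comparison, and 1, Rbbp4, was higher. Over all genes the shares were 3.38% lower and 6.15% higher.

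Other kinetochore and checkpoint genes (22 of 33) had a median of −0.05, from the cohesin protector Sgo2a (−0.57) to Cenpo of the inner kinetochore (0.58). Other spindle and cytokinesis genes (20 of 25) had a median of −0.05, from Spag5, a spindle protein (−0.69), to Cep192, a centrosome scaffold (0.41). Cohesin, condensin and separase genes (18 of 21) had a median of 0.00 at the high dose, from Smc2, a condensin subunit (−0.47), to Nipbl, the cohesin loader (0.44). At the low dose their median was 0.29, against 0.04 over all genes. Several of them, such as Smc1a, Rad21 and Smc4, lie in the top level group, where the median over all genes was 0.19. Of the 18, 14 lay above 0 and 2 were counted as higher, against 54.3% and 7.54% of all genes. In high dose minus low dose their median was −0.19. There 3 of the 18 were lower and 1 higher, against 5.66% and 5.77% of all genes.

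Genes that signal to the G2 checkpoint (6 of 11 past the minimum) had a median of −0.05 in high dose minus unirradiated, from Clspn, which encodes claspin, the adaptor for CHK1 activation (−0.72), to the damage kinase Atr (0.21). Chek1, which encodes CHK1, was below the minimum at 3.82, 3.28 and 3.66. Of the p53-linked arrest genes 10 of 11 were past the minimum, with a median of 0.34 in that comparison. At least 1.5-fold higher were 3 of the 10, and 0 were lower, against 6.15% and 3.38% of all genes. These 3 were Ccng1 (2.02), which encodes cyclin G1, Cdkn1a (1.65), which encodes p21, and Btg2 (1.55), an antiproliferative gene, and the lowest was Ccng2 (−0.32), which encodes cyclin G2. Cdkn1a was at 5.65, 6.12 and 7.30. On the high-dose array, where Cdkn1a was highest, 16 of the 28 G2 and mitosis genes had their lowest value. Their highest value lay there for 5, among them Ccna2, Cdk1 and Mki67. Over all genes 29.8% had their lowest value on that array and 33.1% their highest. With 3 arrays no relation between these genes can be tested.

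**Figure D5:**
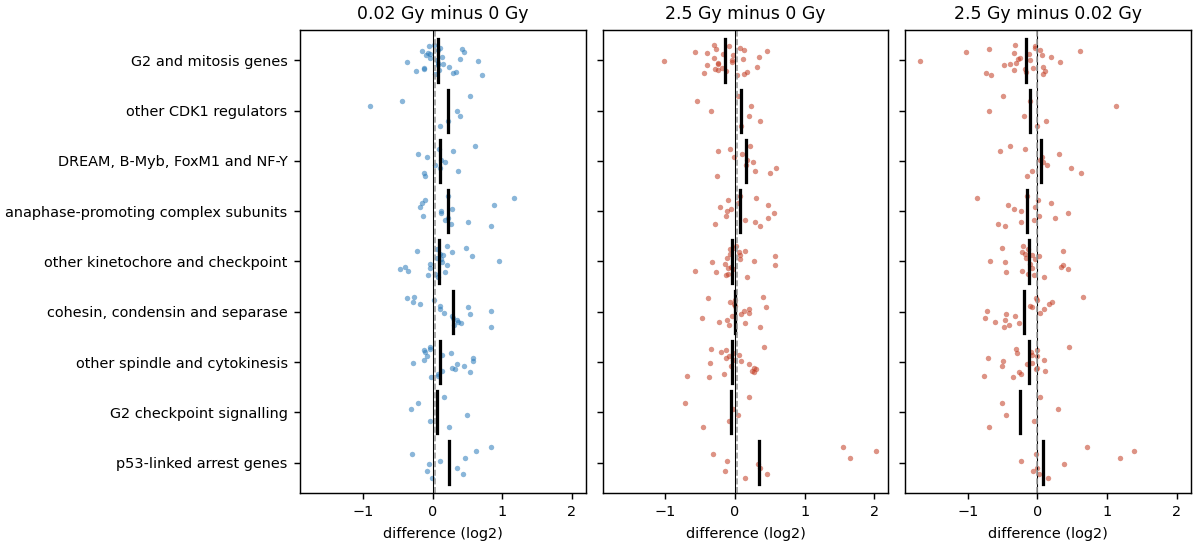
Differences between arrays (log2) for the G2 and mitosis genes and 8 further lists, 1 point per gene past the level minimum, in 0.02 Gy minus 0 Gy (left), 2.5 Gy minus 0 Gy (middle) and 2.5 Gy minus 0.02 Gy (right). Black bars are list medians and the dashed grey line the median of all genes; in 2.5 Gy minus 0 Gy the G2 and mitosis genes have the lowest list median (−0.15) and the p53-linked arrest genes the highest (0.34).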

How the data were processed

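Gene expression was measured on 3 Affymetrix arrays, 1 per dose. For each probe set the authors deposited a log2 value, and Partek is named per the submitters' processing notes, without version or role. The scale was read from the values, and the sources used here do not state background correction, normalization or summarisation. Each probe set is named by an Entrez gene identifier. The platform table named 23185 probe sets and RefSeq (GRCm38.p6), through that identifier, a further 555, with 1466 unnamed and left out. Of 218 symbols on the lists 216 were measured.

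Differences were taken gene by gene with numpy 2.4.6 and pandas 2.3.3, and loess used statsmodels 0.14.6. With 1 array per group there was no test, and genes were counted by a fixed fold size of 1.5. The members and lists were chosen with earlier results of these data known. Genes outside the set were named by a fixed rule: the highest and the lowest of each list in high dose minus unirradiated past the level minimum, and p53-linked arrest genes at least 2-fold different there. Ccnb1-ps, Chek1, the marker genes and those in the last part were named after their values were seen. The promoters shown were the 3 members with the lowest high dose minus low dose difference that had a window. The counting and scaling steps were tested on simulated data. The alternatives were the level minimum (none, or the 75th percentile), median centring, quantile normalization, loess (span 0.3), a fold size of 2, the mean in place of the median, and, chosen after seeing the data, names from the platform table alone.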

Additional observations from a re-analysis of the deposited data

How the results depend on the processing

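No paired analysis was possible because a single array stands for each dose, so no test was run. The median of the G2 and mitosis genes stayed below 0 under every alternative run in high dose minus unirradiated (−0.21 to −0.10) and in high dose minus low dose (−0.21 to −0.13). In low dose minus unirradiated it lay between −0.01, at the 75th percentile minimum, and 0.14, after median centring, so its direction turned at that minimum. Means in place of medians were 0.11 in low dose minus unirradiated, −0.13 in high dose minus unirradiated and −0.24 in high dose minus low dose. Counts of genes at least 1.5-fold different moved more. In low dose minus unirradiated the higher count of 2 was 0 after quantile normalization, after loess and at 2-fold. The shares of all genes there were 5.77%, 5.70% and 1.31%. The lower count of 0 was 1 of 36 without a level minimum (Wee1), against 5.38% of all genes. In high dose minus unirradiated the lower count of 1 was 2 after quantile normalization and after loess, against 4.16% and 3.81% of all genes. In high dose minus low dose the lower count of 5 was 3 of 16 at the 75th percentile minimum, against 6.42% of all genes. At 2-fold it was 2, against 1.04%, and the higher count of 1 was 0, against 1.45%. These runs differ from the main one in the number of genes counted, in the fold size or in the scaling. Why the scalings moved counts was not tested. With names from the platform table alone, which leaves Ccnb1 out, the lower count in high dose minus low dose was 4 of 27, against 5.67%. Of 324 values of single genes under the 3 scalings, 293 moved by at most 0.1 on the log2 scale and 31 by more, up to 0.27, and 0 differences past 1.5-fold changed sign. Without a detection value per probe set, the low genes cannot be split into those above background and those not.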

Other observations

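Some genes of the mitotic machinery outside the 36 differed more between the arrays than most of them, and they are named here after their values were seen. Cks1b, a CDK-binding subunit, was at 6.46, 5.56 and 6.69 at 0, 0.02 and 2.5 Gy, lowest on the low-dose array. Anapc10, which helps the anaphase-promoting complex to recognise substrates, was at 4.57, 5.74 and 4.87, and the cohesin regulators Pds5b (5.15, 5.99 and 5.27) and Wapl (6.19, 7.03 and 6.55) also had the low-dose array highest. Below the level minimum as means, Cenpq of the inner kinetochore was at 4.27, 5.31 and 3.81, the outer kinetochore gene Mis12 at 4.71, 4.72 and 3.56, the motor Kif15 at 4.03, 5.04 and 4.28, and Sgo1, which protects centromeric cohesion, at 4.23, 4.58 and 3.58. In Cenpq, Mis12 and Sgo1 the high-dose array was the lowest, as in Fbxo5 and Ccnb1.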
